A study of Homo sapiens with 28 samples.

Results

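The 8 genes described here encode proteins of the promyelocytic leukaemia (PML) nuclear body and of the SUMO pathway: PML, SP100, SP110, DAXX, PIAS1, RNF4, SENP1 and SENP6. They were followed through the probe sets to which the annotation of the Affymetrix HG-U133 Plus 2.0 array gives that gene symbol and no other, 32 of 54675 probe sets on the array. PML has 10 of them, SP100 6, SP110 5, PIAS1 3, SENP6 3, DAXX 2, SENP1 2 and RNF4 1. Of the 32, 31 were bright enough to be tested, meaning that at least 4 of the 28 arrays had them over their own 50th percentile, and the exception is PML probe set 211588_s_at.

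The arrays measured total RNA of U266, MM.1s, KMS11 and 8226/S, 4 established human lines of multiple myeloma, a cancer of plasma cells. Arsenic trioxide (ATO), an inorganic arsenic compound, was given at 2 µM for 6, 24 or 48 h. DAR (darinaparsin), an organic compound in which dimethylated arsenic is joined to glutathione, was given for 6 or 24 h at 4 µM in U266, at 3 µM in MM.1s and KMS11 and at 2 µM in 8226/S. Each line has 1 array per treatment and 2 untreated arrays from 0 h, called control 1 and control 2, so time in culture and treatment cannot be told apart, and the 4 lines serve as the replicates.

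PML is the scaffold of the nuclear body, a round assembly in the nucleus that holds SP100, DAXX and many other proteins, most of them modified by the small protein SUMO. SUMO is attached by an enzyme cascade that ends in ligases such as PIAS1 and is removed by SENP proteases. PML protein is known for binding arsenic directly, after which it is modified with SUMO, bound by the ubiquitin ligase RNF4 and degraded. SP100, SP110 and PML are also known as genes induced by interferon. The arrays measure RNA and are blind to those protein steps.

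The control 1 and DAR arrays (12) had median signals of 65.5 to 109, and the ATO and control 2 arrays (16) had median signals of 111 to 147. All 20 treated arrays correlated better with the control of their own set than with the other control of the line. Each ATO array was set against control 2 and each DAR array against control 1 of the same line, a pairing fixed in advance. Changes are differences in log2(signal + 29), given as the mean ± SD over 4 lines, with adjusted p from limma's moderated test over 36703 probe sets, and a change was called at an adjusted p under 0.05. Of 7 plasma cell markers, SDC1, TNFRSF17, PRDM1, XBP1 and IRF4 lay at percentile 75.2 or higher on every array, while CD38 and MZB1 reached down to percentiles 9.22 and 11.1. The summed signal of the 7 was 27629 to 59363 after 6 h of ATO, 21741 to 39523 after 24 h and 21514 to 44778 after 48 h, against 36861 to 88582 in control 2. At those times 3, 5 and 6 of them were called lower, beside 1.6%, 1.7% and 4.43% of all probe sets. Under DAR the sum was 33525 to 74364 after 6 h and 34403 to 81621 after 24 h, against 36994 to 93584 in control 1. Of the 7, 2 and 0 were called lower, beside 6.32% and 0.237% of all. Markers of other cell types numbered 8 on the array, and none of 6 tested was called under either compound. The summed signal of the 8 was 2368 to 9918 after 48 h of ATO, against 2223 to 9850.1 in control 2. After 24 h of DAR it was 711 to 12504, against 1316 to 11679 in control 1. EPCAM ranged most, from 2.32 to 11542. Median percentiles over 28 arrays were 79.9 (HBB), 74.8 (COL1A1), 72.1 (PECAM1), 65.1 (EPCAM), 58.1 (MS4A1), 55.3 (CD3E), 29.6 (CD3D) and 16.2 (CD14). The part of the marker shift in the results below was not tested, and in bulk RNA fewer cells of a kind and less RNA per cell cannot be told apart.

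Treatment moved few of these probe sets against untreated cells, and more of them between the early and late arrays of DAR. At 6 h of ATO 1 of 31 probe sets was called, lower, against 4.11% of all probe sets tested (2.51% higher and 1.6% lower). At 24 h of ATO none was called, against 3.35% of all (1.65% higher and 1.7% lower). At 48 h of ATO 1 was called, higher, against 8.44% of all (4.01% higher and 4.43% lower). Under DAR 3 were called at 6 h, all lower, against 12.4% of all (6.04% higher and 6.32% lower), a share of the members near the background. At 24 h of DAR 2 were called, both higher, against 0.954% of all (0.717% higher and 0.237% lower). Between 24 and 6 h of DAR 10 of 31 differed, all higher at 24 h, against 7.39% of all (4.23% higher and 3.16% lower). Of the 31, SP100 probe sets 210985_s_at (among the 10) and 237426_at were bright enough only through the 24 h DAR arrays, so their place in that count was favoured by the filter. Between 48 and 6 h of ATO 5 differed, 4 higher and 1 lower at 48 h, against 2.94% of all (1.11% higher and 1.83% lower). Unadjusted p from the same limma tests was under 0.05 for 12, 1 and 7 of 31 at 6, 24 and 48 h of ATO. Under DAR the counts were 8 at 6 h and 10 at 24 h. They were 13 between 48 and 6 h of ATO and 18 between 24 and 6 h of DAR. The share of all probe sets at that unadjusted level is not given here. The map of changes by line shows the called sets as boxes among many cells of mixed colour.

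**Figure D1:**
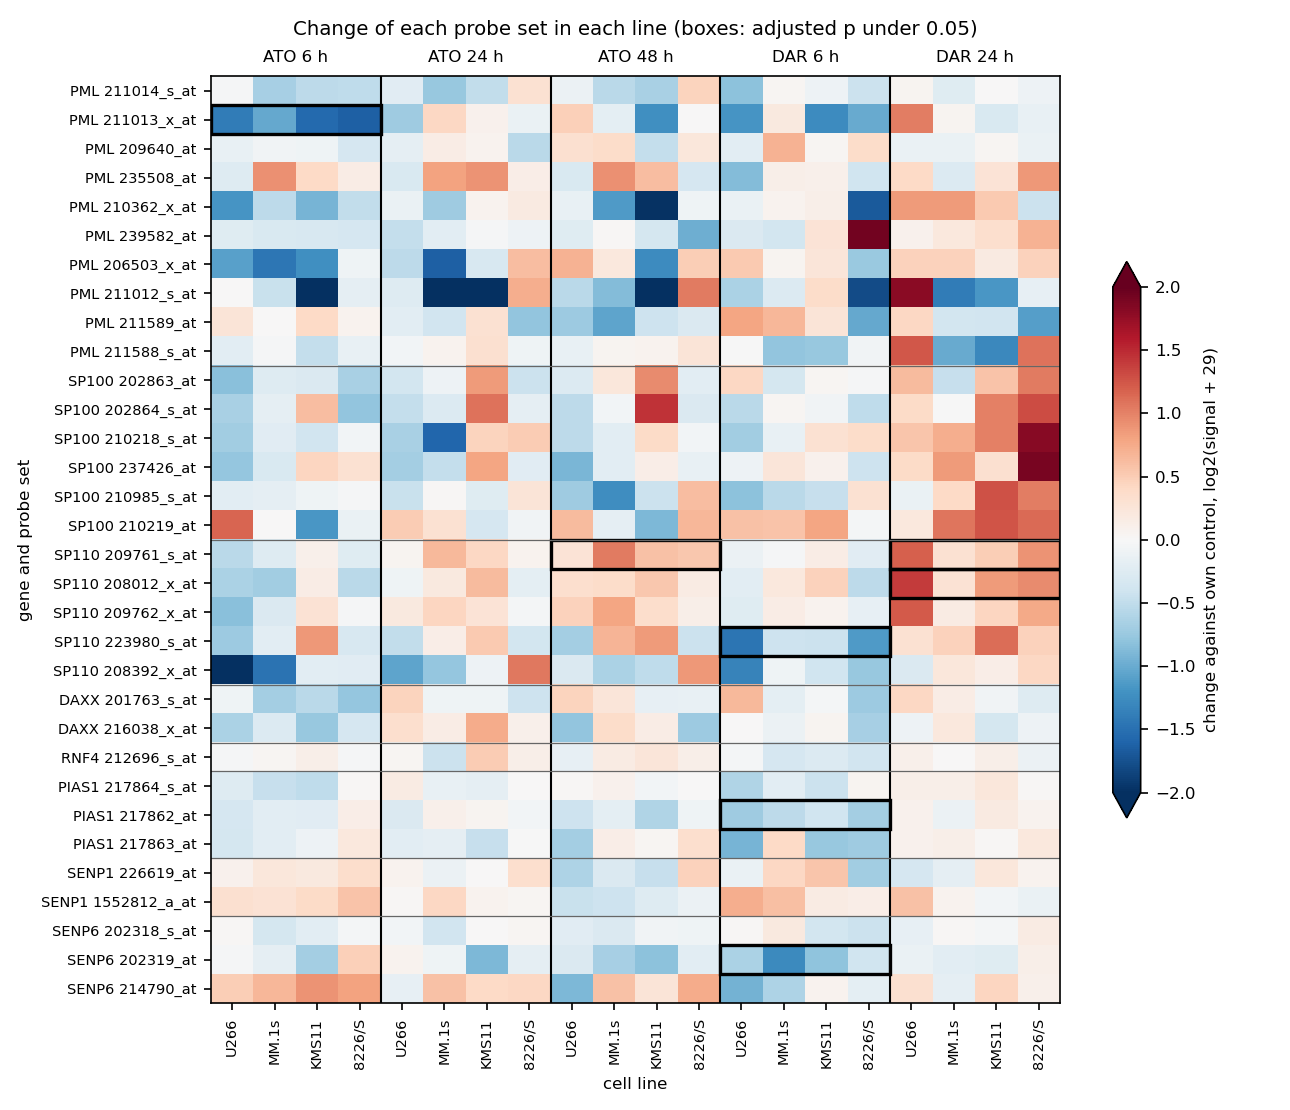
Change of each of the 32 probe sets (rows) in each line (columns) against its own control, in log2(signal + 29), for 5 treatments. Boxes mark the 7 changes called at an adjusted p under 0.05 over all probe sets tested, of which 1 is PML after 6 h of ATO and 2 are SP110 after 24 h of DAR.

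For PML, the scaffold, the brightest probe set passed no test while a dimmer one fell after 6 h of ATO. The brightest, 211014_s_at, gave 496, 458, 524 and 442 in U266, MM.1s, KMS11 and 8226/S after 6 h of ATO, against 503, 743, 767 and 641 in control 2. Every line was lower, U266 by very little, and the mean change of -0.43 ± 0.28 was not called (adjusted p = 0.293). Its mean changes were -0.29 ± 0.45 after 24 h of ATO and -0.21 ± 0.50 after 48 h, and 8226/S was the line above control at both times. After DAR it changed by -0.33 ± 0.38 at 6 h and -0.07 ± 0.13 at 24 h, neither called. In untreated cells it read 503 to 767 in control 2 and 222 to 325 in control 1, so its levels are comparable only within a set.

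Probe set 211013_x_at of PML gave 28.3, 182, 100.0 and 257 in U266, MM.1s, KMS11 and 8226/S after 6 h of ATO, against 122, 402, 351 and 862 in control 2. It was lower in every line, by 1.03 to 1.64 on the log2 scale, although the ranges over the lines overlap because U266 starts low. The mean change was -1.41 ± 0.27, that is 2.65-fold lower (adjusted p = 0.00974). By 48 h of ATO the same probe set read 182, 349, 134 and 871 in those lines, a difference of 1.18 ± 0.72 from 6 h, higher in all 4 lines (adjusted p = 0.0399). After 6 h of DAR it read 43.1, 336, 146 and 272, against 135, 290.4, 391 and 575 in control 1, lower in 3 of 4 lines and not called (-0.82 ± 0.68, adjusted p = 0.0946). The ATO call at 6 h was lost without KMS11 (adjusted p = 0.0747) and without 8226/S (0.085). The later difference was lost without U266 (0.116), MM.1s (0.105), KMS11 (0.0682) or 8226/S (0.196), and also under median centring (0.0665), with no filter (0.0601), with no variance trend (0.0859) and with the controls of a line pooled (0.157). The x in the probe set's name marks probes that may also bind other transcripts.

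The PML probe sets differed among themselves. Of 9 tested, 7 lay below control 2 and 2 above it after 6 h of ATO, with mean changes of -1.41 to 0.30, and 1 was called. Among those not called, 206503_x_at changed by -0.96 ± 0.60 and was lower in 4 of 4 lines (adjusted p = 0.119). Probe set 210362_x_at changed by -0.78 ± 0.34, also lower in 4 of 4 lines (adjusted p = 0.203). Probe set 211012_s_at changed by -0.65 ± 0.91, lower in 3 of 4 lines (adjusted p = 0.663). Between 24 and 6 h of DAR 6 of 9 lay higher at 24 h, with differences of -0.53 to 0.97, and none was called. Across 28 arrays, each taken relative to its line and set, the Pearson correlation between pairs of PML probe sets ran from -0.38 to 0.73 with a median of 0.06, as a description over arrays that share lines and scaling. Probe sets 209640_at, 235508_at, 239582_at and 211589_at, with median signals of 218, 176, 222 and 72.1 over 28 arrays, had mean changes of -0.16, 0.30, -0.30 and 0.19 after 6 h of ATO, and none was called in a treatment or time comparison. Probe set 211588_s_at, left out of the tests, read between 4.74 and 123 and exceeded its array's median on 2 of 28 arrays.

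SP110, a nuclear body protein related to SP100, was the gene called in most comparisons. Its brightest probe set, 209761_s_at, gave 1273, 1527, 716 and 1234 in U266, MM.1s, KMS11 and 8226/S after 48 h of ATO, against 1053, 726, 465 and 838 in control 2. Each line was higher than its own control, though the groups overlap across lines, and the probe set rose by 0.61 ± 0.32 (adjusted p = 0.0217). None of the other 4 SP110 probe sets was called at 48 h of ATO: 209762_x_at changed by 0.43 (adjusted p = 0.232), 208012_x_at by 0.35 (0.340), 223980_s_at by 0.11 (0.869) and 208392_x_at by -0.14 (0.873). At 6 h of ATO the 4 lines had read 715, 605, 499.6 and 700.4. The difference of 48 h from 6 h was 0.85 ± 0.33, higher in all 4 lines (adjusted p = 0.00548). The rise at 48 h was lost without MM.1s (adjusted p = 0.188), KMS11 (0.108) or 8226/S (0.0569) and with arrays centred on their medians (0.083), and the difference from 6 h was lost without MM.1s (0.0855) and with the controls of a line pooled (0.324).

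Under DAR the same SP110 probe set read 606, 864, 816 and 1190.1 in U266, MM.1s, KMS11 and 8226/S at 24 h, against 248, 696, 570.1 and 626 in control 1. Each line was again above its own control, by 0.30 to 1.20, and U266 moved most. The mean rise was 0.72 ± 0.40 (adjusted p = 0.0340). At 6 h the 4 lines read 227, 681, 638 and 533, close to control 1, with a mean change of -0.05 ± 0.16 (adjusted p = 0.892). The difference of 24 h from 6 h was 0.78 ± 0.51 (adjusted p = 0.00435). In U266 the untreated arrays differ, with 1053 in control 2 and 248 in control 1. The 24 h rise was lost without U266 (adjusted p = 0.160), KMS11 (0.138) or 8226/S (0.231) and under median centring (0.109), quantile normalization (0.0853) and no variance trend (0.0648), and was 0.45 with the controls of a line pooled (0.297). The difference from 6 h was lost without U266 (0.0671) or 8226/S (0.0686) and with pooled controls (0.241).

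Of the other 4 SP110 probe sets, 3 were called between 24 and 6 h of DAR, and the mean of each of the 5 was higher at 24 h. Probe set 223980_s_at read 231, 407, 372 and 297 in U266, MM.1s, KMS11 and 8226/S at 24 h, against 47.9, 209, 108 and 79.5 at 6 h. The groups do not overlap, and the difference of 1.44 ± 0.39 is 2.72-fold (adjusted p = 0.000535). Control 1 read 182, 288, 156 and 209, so 6 h was below control in every line (-0.86 ± 0.52, adjusted p = 0.0204) and 24 h above it (0.58 ± 0.36, adjusted p = 0.264). The fall at 6 h was lost without U266 (adjusted p = 0.144) or 8226/S (0.128), whereas the difference between the times was called in each of 11 alternatives, at an adjusted p of 0.000569 to 0.0152.

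Probe set 208012_x_at of SP110 read 879, 964, 1266 and 1571 in U266, MM.1s, KMS11 and 8226/S after 24 h of DAR, against 316, 783, 691 and 806 in control 1. It rose by 0.87 ± 0.45 (adjusted p = 0.0343), in every line, with groups that overlap across lines. The other 2 SP110 probe sets were not called after 24 h of DAR, with 0.65 ± 0.46 for 209762_x_at (adjusted p = 0.135) and 0.12 ± 0.30 for 208392_x_at (0.911). For 208012_x_at the difference of 24 h from 6 h of DAR was 0.88 ± 0.76 (adjusted p = 0.00679), and that of 48 h from 6 h of ATO was 0.78 ± 0.31 (adjusted p = 0.0330). Probe set 209762_x_at differed by 0.69 ± 0.64 between 24 and 6 h of DAR (adjusted p = 0.0411), with MM.1s at almost the same level at both times. The fifth, 208392_x_at, differed by 0.76 ± 0.41 and was not called (adjusted p = 0.186). The rise of 208012_x_at was lost without U266 (adjusted p = 0.165), KMS11 (0.158) or 8226/S (0.188) and under median centring (0.0873), quantile normalization (0.0737), no variance trend (0.0698) and pooled controls (0.0750). Its DAR time difference was lost without U266 (0.112) or 8226/S (0.101) and with pooled controls (0.219). Its ATO time difference was lost without U266 (0.140), MM.1s (0.189), KMS11 (0.0742) or 8226/S (0.064) and under median centring (0.0749), no variance trend (0.0780) and pooled controls (0.50). The DAR time difference of 209762_x_at was lost without U266 (0.249, with a difference of 0.43), KMS11 (0.080) or 8226/S (0.182), under both other scalings (0.0703 and 0.0945), and with no filter (0.0567), no variance trend (0.0682) and pooled controls (0.406).

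**Figure D2:**
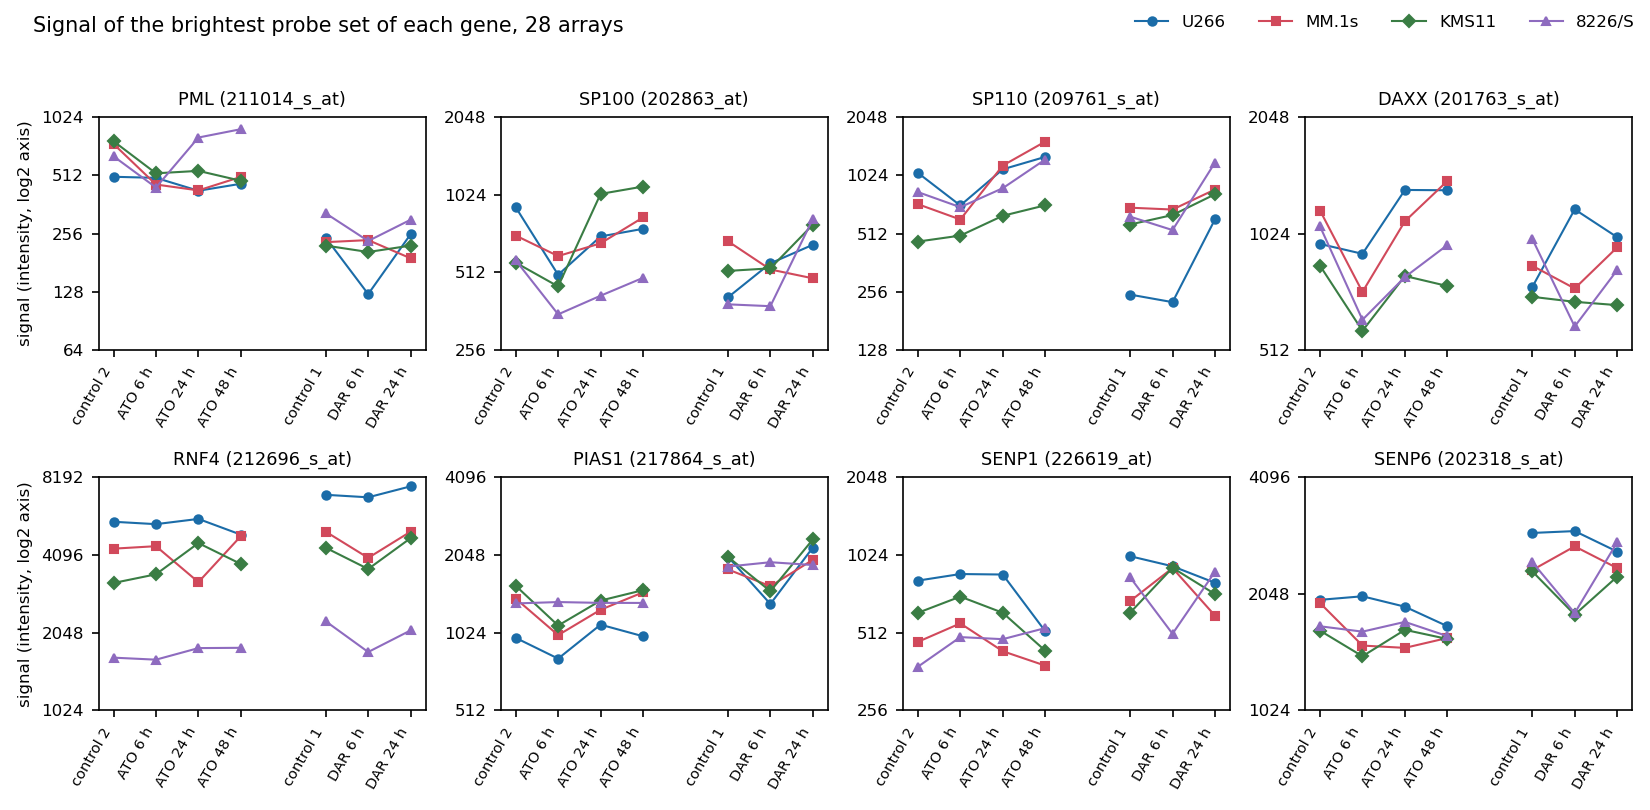
Deposited signal (log2 axis) of the brightest probe set of each gene on 28 arrays, with 1 line of points per cell line, ATO times to the right of control 2 and DAR times to the right of control 1. SP110 after 24 h of DAR and after 48 h of ATO lies above the control in all 4 lines, and RNF4 keeps U266 on top and 8226/S at the bottom in every group.

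SP100, a main partner of PML in the body, was called between 24 and 6 h of DAR in 3 of 6 probe sets. All 6 had means above 0, but 210985_s_at (called) and 237426_at were tested only through the 24 h DAR arrays, which favoured a rise. Probe set 210218_s_at read 610.3, 357, 395 and 473 in U266, MM.1s, KMS11 and 8226/S at 24 h, against 238, 182, 234 and 155 at 6 h. The groups do not overlap, and the difference was 1.07 ± 0.35 (adjusted p = 0.0265). Control 1 read 405, 204, 183 and 113, and the change of 24 h against it, 1.03 ± 0.56 and higher in 4 of 4 lines, was not called (adjusted p = 0.0928). Probe set 202864_s_at read 821, 453, 1003 and 972 at 24 h of DAR, against 422, 468, 459 and 257 at 6 h. It was higher in 3 of 4 lines and almost level in MM.1s, with a difference of 0.94 ± 0.76 (adjusted p = 0.0242).

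The dim SP100 probe set 210985_s_at exceeded its array's median on 6 of 28 arrays, 4 of them the 24 h DAR arrays, and would not have been tested without that group. It read 122, 109, 88.6 and 159 in U266, MM.1s, KMS11 and 8226/S after 24 h of DAR, against 65.1, 43.3, 6.14 and 85.3 after 6 h, and the groups do not overlap. Its difference was 1.02 ± 0.50 (adjusted p = 0.0397), or 1.68 with an offset of 1 and 0.57 with an offset of 100, and it was not called once all probe sets were tested with no filter (adjusted p = 0.0598). Probe set 237426_at, which also passed the filter only through the 24 h DAR arrays, differed by 0.91 ± 0.95 between the DAR times (adjusted p = 0.0755), and 210219_at by 0.44 ± 0.63 (0.479). The brightest SP100 probe set, 202863_at, was not called between the DAR times (0.43 ± 0.50, adjusted p = 0.246), with MM.1s slightly lower at 24 h. For 48 h against 6 h of ATO it differed by 0.68 ± 0.37, higher in 4 of 4 lines and not called (adjusted p = 0.0842). Of the SP100 calls, 202864_s_at was lost without U266 (adjusted p = 0.0896), KMS11 (0.0572) or 8226/S (0.221) and under quantile normalization (0.0519), no variance trend (0.0504) and pooled controls (0.0563). The call of 210218_s_at was lost without U266 (0.129), KMS11 (0.0664) or 8226/S (0.112) and with an offset of 1 (0.0754) or pooled controls (0.0817). That of 210985_s_at was also lost without U266 (0.0837), MM.1s (0.115), KMS11 (0.295) or 8226/S (0.0515) and with pooled controls (0.133).

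SP110, SP140, SP140L and SP100 follow each other along chromosome 2 among protein-coding genes in the RefSeq annotation. RefSeq promoters of GRCh38.p14, 300 bases long with 250 before and 50 after each start, were at hand for 6 of the 8 genes, 12 promoters in all, and for 28 genes of an interferon-stimulated list. The core of the interferon-stimulated response element was searched as GAAANNGAAA on both strands. It was in 1 of the 12 promoters (SENP1), beside 3.574% of 35116 promoters. By gene it was in 20 of the 28 interferon-stimulated genes, beside 4.376% of 27305 genes. Pairs of GAAA parted by another number of bases were not searched. Neither SP100 nor SP110 held a match to GAAANNGAAA, which does not show that their promoters lack a response element. A shorter run, AAGTGAAA, was chosen after their promoters had been read, so finding it there was given by the choice and tests nothing. It was in 3 of the 12 promoters, beside 1.62% of all promoters. By gene it was in 3 of the 28, beside 2.033% of all genes. The run overlaps no GAAANNGAAA match in those 3 promoters. SP100 and SP110 gave 7 of the 10 calls between 24 and 6 h of DAR, with 210985_s_at favoured by the filter. For that reason the 3 promoters are shown. They are written 5′ to 3′ on the gene's strand, with the run or its reverse complement in capitals, and a match is a description of letters only.
SP100, chr2:230415951-230416250, plus strand: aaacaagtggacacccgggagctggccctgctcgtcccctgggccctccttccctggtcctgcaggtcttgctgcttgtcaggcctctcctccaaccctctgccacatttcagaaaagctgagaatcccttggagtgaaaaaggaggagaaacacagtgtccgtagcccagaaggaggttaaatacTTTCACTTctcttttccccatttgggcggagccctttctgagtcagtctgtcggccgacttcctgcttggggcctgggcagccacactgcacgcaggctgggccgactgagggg
SP110, chr2:230225587-230225886, minus strand: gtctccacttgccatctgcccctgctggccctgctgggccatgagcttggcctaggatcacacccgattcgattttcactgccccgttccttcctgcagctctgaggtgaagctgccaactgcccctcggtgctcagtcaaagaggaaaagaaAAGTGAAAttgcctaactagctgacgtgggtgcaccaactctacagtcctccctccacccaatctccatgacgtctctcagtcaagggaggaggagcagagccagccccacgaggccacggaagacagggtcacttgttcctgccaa
SP110, chr2:230219935-230220234, minus strand: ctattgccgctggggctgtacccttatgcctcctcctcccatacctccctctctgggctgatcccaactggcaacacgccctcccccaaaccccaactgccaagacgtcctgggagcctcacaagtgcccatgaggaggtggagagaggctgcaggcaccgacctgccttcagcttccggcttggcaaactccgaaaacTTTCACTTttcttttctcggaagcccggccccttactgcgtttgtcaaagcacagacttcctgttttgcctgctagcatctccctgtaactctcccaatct
In the SP100 promoter the run lies on the opposite strand at bases 187 to 194 of the window. In the first SP110 promoter it lies on the gene's own strand at bases 154 to 161, and in the second on the opposite strand at bases 200 to 207.

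DAXX, a histone chaperone that PML bodies hold, was called in 1 time contrast. Probe set 201763_s_at read 1324, 1399.6, 749.6 and 956 in U266, MM.1s, KMS11 and 8226/S after 48 h of ATO, against 908, 724, 575 and 613 after 6 h. Each line was higher at 48 h, with overlap across lines, and the difference was 0.61 ± 0.23 (adjusted p = 0.0424). Control 2 read 963, 1174, 846 and 1068, so the 6 h arrays were below control (-0.52 ± 0.31, lower in 4 of 4 lines, adjusted p = 0.0800) and the 48 h arrays near it (0.09 ± 0.31, adjusted p = 0.819). The second DAXX probe set, 216038_x_at, differed by 0.25 ± 0.63 between 48 and 6 h and was not called. The call was lost without U266 (adjusted p = 0.0609), MM.1s (0.329), KMS11 (0.149) or 8226/S (0.062) and under median centring (0.164), no filter (0.0580), no variance trend (0.0898) and pooled controls (0.178).

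PIAS1, a SUMO ligase also known as an inhibitor of activated STAT proteins, fell after 6 h of DAR in 1 of 3 probe sets. Between 24 and 6 h of DAR 2 of the 3 were called, higher at 24 h. Probe set 217862_at read 696, 834, 787 and 514 in U266, MM.1s, KMS11 and 8226/S after 6 h of DAR, against 1154, 1209, 1049.7 and 845 in control 1. The groups do not overlap, and the fall was -0.58 ± 0.14, that is 1.49-fold lower (adjusted p = 0.00321). At 24 h the 4 lines read 1220.0, 1110.0, 1191 and 889, above every 6 h value and near control 1 (0.05 ± 0.12, adjusted p = 0.897). The difference of 24 h from 6 h was 0.63 ± 0.18 (adjusted p = 0.00269). That difference was called in each of 11 alternatives, at an adjusted p of 0.00242 to 0.0481, and the fall at 6 h was lost only with the controls of a line pooled (adjusted p = 0.0609).

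The brightest PIAS1 probe set, 217864_s_at, read 2187, 1961, 2351 and 1873 in U266, MM.1s, KMS11 and 8226/S at 24 h of DAR, against 1323, 1550.3, 1482 and 1919.7 at 6 h. It was higher in 3 of 4 lines and slightly lower in 8226/S, with a difference of 0.42 ± 0.34 (adjusted p = 0.0390). Its fall at 6 h against control 1 was not called (-0.30 ± 0.28, adjusted p = 0.125). The third probe set, 217863_at, differed by 0.61 ± 0.61 between the DAR times (adjusted p = 0.0599). At 6 h it read 254, 635, 334 and 327 in those lines, against 509, 473, 588 and 555 in control 1. MM.1s was the line above control, and the change was not called. After ATO none of the 3 was called at any time, with mean changes of the brightest of -0.30, -0.04 and 0.01 at 6, 24 and 48 h. The call of 217864_s_at was lost without U266 (adjusted p = 0.226), MM.1s (0.121) or KMS11 (0.270), under both other scalings (0.0781 and 0.0814), and with no filter (0.050), no variance trend (0.0722) and pooled controls (0.307).

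RNF4, the ubiquitin ligase that binds SUMO chains, was not called under any treatment. Its probe set 212696_s_at read 6847, 3991, 3614 and 1724 in U266, MM.1s, KMS11 and 8226/S after 6 h of DAR and 7551, 5043, 4759.7 and 2092 after 24 h, against 7003, 5041, 4368 and 2268 in control 1. The change at 6 h, -0.26 ± 0.16 and lower in 4 of 4 lines, had the lowest adjusted p against control, 0.177. After ATO its mean changes were 0.02 ± 0.07, 0.06 ± 0.38 and 0.09 ± 0.18 at 6, 24 and 48 h.

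SENP1, a protease that removes SUMO, fell between 6 and 48 h of ATO in 1 of 2 probe sets. Probe set 1552812_a_at read 856, 457, 746 and 746 in U266, MM.1s, KMS11 and 8226/S at 48 h, against 1469, 769, 1177 and 1228 at 6 h. The groups overlap only through MM.1s, every line was lower, and the difference of -0.70 ± 0.05 is 1.63-fold lower (adjusted p = 0.00707). Against control 2, 6 h was higher in 4 of 4 lines (0.39 ± 0.13, adjusted p = 0.138) and 48 h lower in 4 of 4 (-0.31 ± 0.15, adjusted p = 0.203). The brightest SENP1 probe set, 226619_at, differed by -0.44 ± 0.38 between these times, lower in 3 of 4 lines (adjusted p = 0.248). The call was lost without U266 (adjusted p = 0.0521), MM.1s (0.0552) or KMS11 (0.0787) and with pooled controls (0.464).

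SENP6, a protease that trims SUMO chains, fell after 6 h of DAR in 1 of 3 probe sets. Probe set 202319_at read 169.6, 271, 265 and 151 in U266, MM.1s, KMS11 and 8226/S after 6 h of DAR, against 279, 692, 483 and 208 in control 1. Each line was lower, by 0.40 to 1.27 on the log2 scale, and the ranges over lines overlap. The mean change was -0.78 ± 0.37 (adjusted p = 0.00849). At 24 h of DAR it read 252, 593, 405 and 227, a difference of 0.66 ± 0.27 from 6 h, higher in 4 of 4 lines (adjusted p = 0.0377). The brightest, 202318_s_at, changed by -0.15 ± 0.30 at 6 h of DAR and was not called in any treatment comparison. The third, 214790_at, was never called either, with 0.72 ± 0.18 after 6 h of ATO, higher in 4 of 4 lines (adjusted p = 0.0930), and -0.42 ± 0.45 after 6 h of DAR (0.288). The fall was lost without MM.1s (adjusted p = 0.139) or KMS11 (0.0551), and the time difference without U266 (0.0915), MM.1s (0.254), KMS11 (0.121) or 8226/S (0.0619), under median centring (0.0613) and quantile normalization (0.0764), and with no filter (0.0528) or pooled controls (0.139).

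Set side by side, the DAR time contrast was the one in which these probe sets lay apart most from 0. Of all 32, taken with no filter, 27 had a mean difference above 0 between 24 and 6 h, and their median was 0.51, beside 50.5% of all probe sets above 0 and a median of 0.0049. Among the 31 tested the count was 26, and it was also 26 under median centring and under quantile normalization. The probe sets of 1 gene share its RNA, so these are not 32 separate measures. After 6 h of ATO 6 of 32 lay above 0 with a median of -0.22, and under DAR 8 of 32 at 6 h with a median of -0.22, while the medians of all probe sets were 0.0043 and 0.03. After 24 h of DAR 24 of 32 lay above 0 with a median of 0.14, and after 48 h of ATO 15 of 32 with a median of -0.07. The DAR contrasts share their 6 h and 24 h arrays, and the ATO contrasts share control 2.

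**Figure D3:**
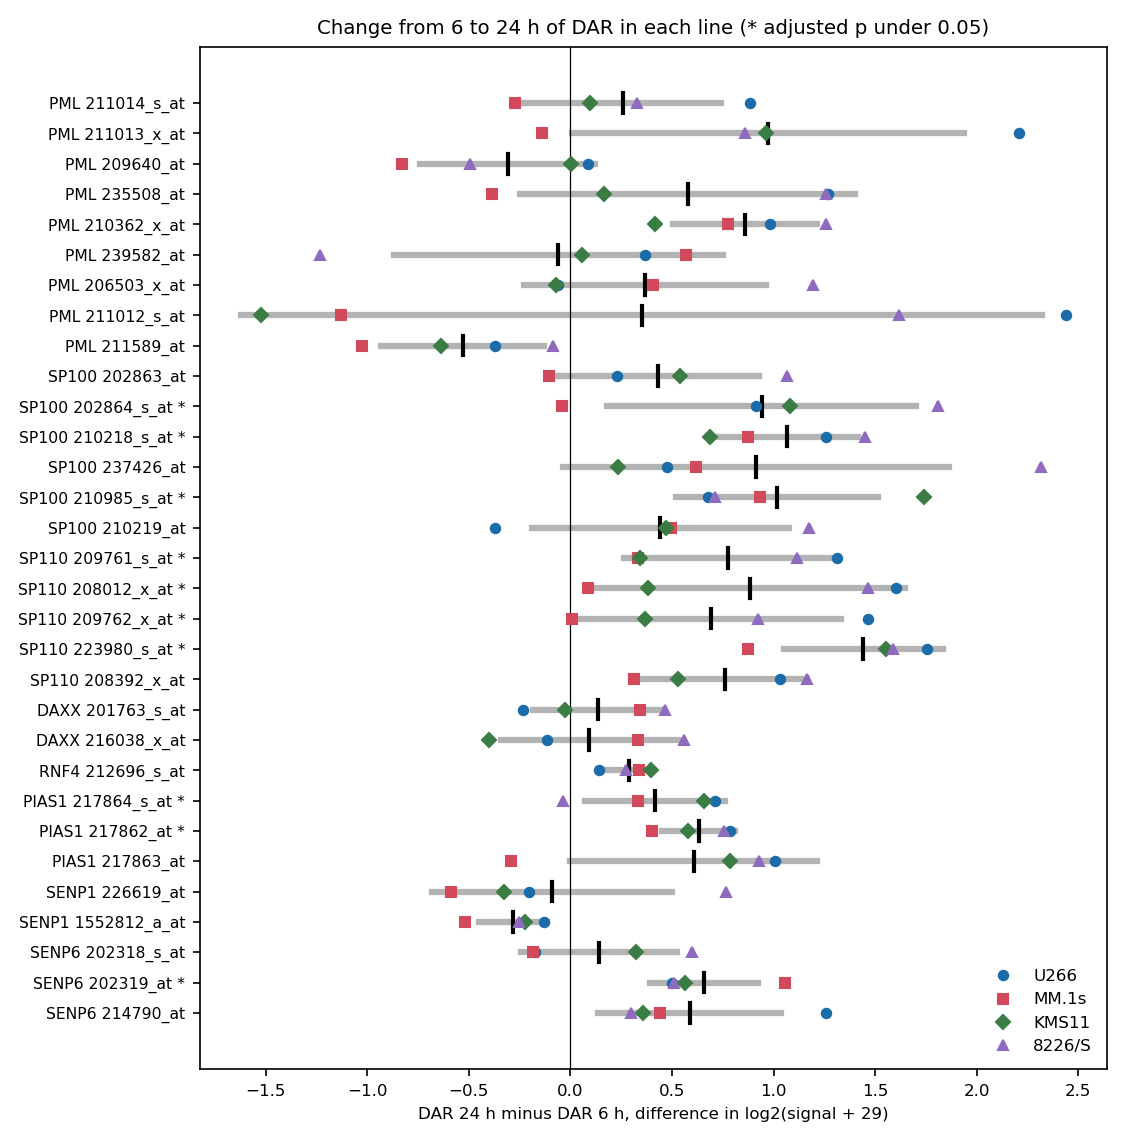
Difference of DAR 24 h from DAR 6 h in log2(signal + 29) for the 31 probe sets tested, with 1 point per line, a black bar at the mean and a grey bar for the SD over 4 lines. An asterisk marks the 10 called at an adjusted p under 0.05, and 223980_s_at of SP110 has the highest mean, 1.44.

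**Figure D4:**
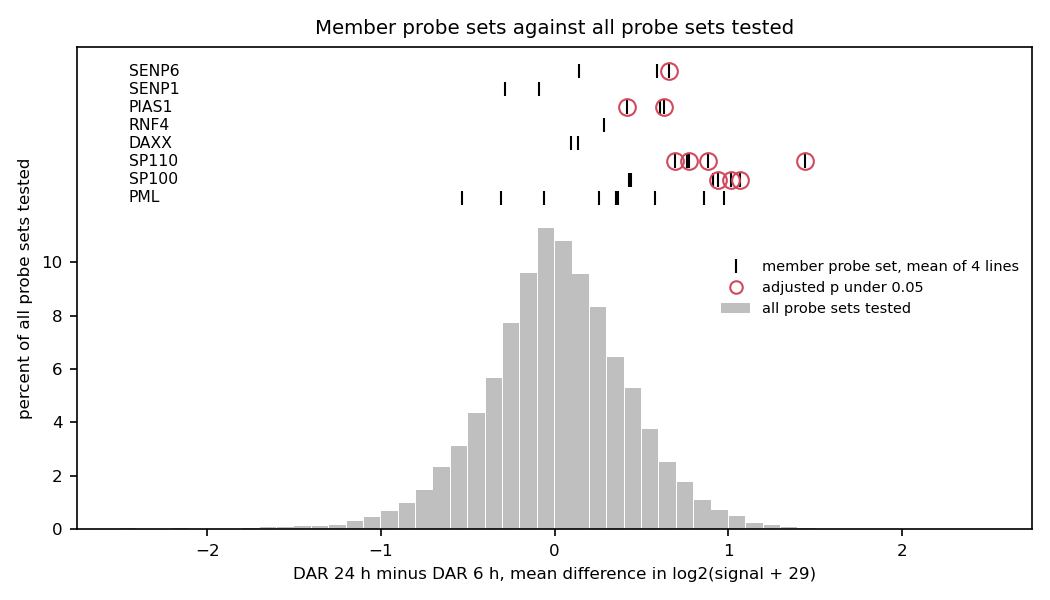
Distribution of the mean difference of DAR 24 h from DAR 6 h over 36703 probe sets (grey, percent per bin of 0.1, with values beyond 2.5 on either side put in the last bin), with the 31 probe sets of the 8 genes as black ticks above it and the 10 called ones circled. The called ticks lie between 0.42 and 1.44, and the median of all probe sets is 0.01.

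Untreated lines differed in 8 of 31 probe sets by limma's F test over the 8 control arrays with the control number as a block, against 43.9% of all probe sets tested. RNF4 had the lowest adjusted p, 2.85e-05. Its untreated signals were 5507 and 7003 in U266, 4332 and 5041 in MM.1s, 3190.4 and 4368 in KMS11, and 1639.9 and 2268 in 8226/S. U266 lay above MM.1s without overlap, MM.1s and KMS11 overlapped, and 8226/S lay below all. In each of the 7 groups of arrays U266 was the highest line and 8226/S the lowest.

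Of the PML probe sets, 4 differed between untreated lines. For 211013_x_at the mean signal of the 2 controls was 129 in U266, 346 in MM.1s, 371 in KMS11 and 719 in 8226/S (adjusted p = 0.000695), with MM.1s and KMS11 overlapping. For 211012_s_at it was 63.6 in U266 and 384 in 8226/S (adjusted p = 0.00473). For 206503_x_at it was 87.8 in U266 and 357 in 8226/S (adjusted p = 0.00701), and for 210362_x_at 142 and 454 in those lines (adjusted p = 0.0273). By these means U266 was the lowest and 8226/S the highest line in each of the 4. In control 2, however, 211012_s_at was higher in KMS11 (452) than in 8226/S (361). For 210362_x_at the controls of MM.1s read 48.9 and 594, a range that overlaps those of the other lines. The brightest PML probe set did not pass the test (adjusted p = 0.721). SP100 probe set 210218_s_at was instead higher in U266, with a mean of 394, than in 8226/S, with 91.5 (adjusted p = 0.00580). SP110 probe set 208392_x_at had 308 in U266 and 76.8 in 8226/S (adjusted p = 0.0494). SENP6 probe set 202319_at had 537 in MM.1s, 485 in KMS11, 255 in U266 and 196 in 8226/S (adjusted p = 0.00747). Without U266 the calls of 211012_s_at (0.511), 210362_x_at (0.0617), 210218_s_at (0.292) and 208392_x_at (0.118) were lost, and without 8226/S those of 206503_x_at (0.0548), 210362_x_at (0.387) and 208392_x_at (0.154). Without the control number as a block 6 of the 8 were lost, all but RNF4 and PML 211013_x_at, and offsets, scalings, the filter or the variance trend ended only the calls of 210362_x_at (0.0527 to 0.0786) and 208392_x_at (0.0667 to 0.123).

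Whether the lines differed in their response was tested with an F test on the terms of line by compound. None of the 31 probe sets passed for ATO, against 0.0463% of all, with a lowest adjusted p of 0.710 and 1 at an unadjusted p under 0.05. None passed for DAR, against 0.0272% of all, with a lowest adjusted p of 0.716 and 0 at an unadjusted p under 0.05. The spread in these tests is that between times within a line, so they compare mean changes over the times.

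In 8226/S both compounds were given at 2 µM, with 1 array per treatment and so no test. SP110 209761_s_at changed by 0.90 after 24 h of DAR and by 0.06 after 24 h of ATO, each against its own control. SP100 202863_at changed by 1.04 after 24 h of DAR and by -0.43 after 24 h of ATO. For PML 211013_x_at the changes at 6 h were -1.01 with DAR and -1.64 with ATO. For PIAS1 217862_at they were -0.69 with DAR and 0.14 with ATO at 6 h. In the other lines the doses differed, and no comparison between the compounds was made.

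Beside these genes, 17 other PML body partners were measured by the brightest probe set of each. The shares given beside this and the other lists are over all probe sets tested, which include dimmer probe sets of the same genes. When only the brightest probe sets of 15437 genes were fitted, 990, 772 and 1812 were called at 6, 24 and 48 h of ATO. Under DAR 2036 and 96 were called at 6 and 24 h. After ATO, ASF1A, a histone chaperone, rose by 1.15 at 6 h, 0.99 at 24 h and 1.05 at 48 h (adjusted p = 0.000204, 0.00137 and 0.000399). TDG, a DNA glycosylase, fell by 0.58, 0.50 and 0.57 at those times. Counts of partners called under ATO were 3, 2 and 3 of 17 at 6, 24 and 48 h, beside 4.11%, 3.35% and 8.44% of all probe sets, with NBN, a DNA repair protein, higher at 6 h (0.58) and SP140L, a relative of SP100, higher at 48 h (0.70). Between 48 and 6 h of ATO NBN was lower at 48 h (-0.49, adjusted p = 0.0231), the 1 of 17 called there, beside 2.94% of all. After 6 h of DAR 4 of 17 were called, beside 12.4% of all: ISG20, an exonuclease, rose by 0.89, while ATRX (-0.45), NBN (-0.52) and TDG (-0.47) fell. After 24 h of DAR SP140 was the 1 of 17 called, beside 0.954% of all, with a rise of 1.18 (adjusted p = 0.0455). Between 24 and 6 h of DAR ATRX, the chromatin remodeller that works with DAXX, was higher at 24 h by 0.46, and the list's median was 0.12. ATRX was the 1 of 17 called there, beside 7.39% of all.

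Of 11 tested genes of SUMO conjugation, none was called after 6 or 24 h of ATO, beside 4.11% and 3.35% of all probe sets. After 48 h 1 was called, beside 8.44% of all, namely TRIM28, which fell by 0.50. Under DAR 3 of 11 were called at 6 h, beside 12.4% of all, with RANGAP1, the classic SUMO target at the nuclear pore, higher by 1.16 (adjusted p = 4.68e-05), NSMCE2 higher by 0.40 and PIAS4 lower (-0.49). PIAS4, a ligase of the same family as PIAS1, was higher at 24 h than at 6 h of DAR by 0.56 (adjusted p = 0.0169), and RANGAP1 was lower (-0.83). Between 48 and 6 h of ATO PIAS3, another of that family, was higher by 0.66 (adjusted p = 0.0128). Of 6 other SUMO proteases, SENP3 fell after 6 h of DAR (-0.43) and DESI2 after 48 h of ATO (-0.34). No other was called in a treatment comparison. Of all probe sets, 12.4% were called after 6 h of DAR and 8.44% after 48 h of ATO.

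Genes stimulated by interferon, the class to which SP100, SP110 and PML belong, were counted in a list of 31 tested genes without these members. Between 24 and 6 h of DAR 12 of 31 were called, 10 of them higher at 24 h, beside 7.39% of all probe sets (4.23% higher), and the list's median was 0.52, beside 0.01 for all probe sets. By line that median was 0.87 in U266, 0.08 in MM.1s, 0.10 in KMS11 and 1.84 in 8226/S. Without 8226/S it was 0.23, with 5 called higher, and without MM.1s 0.80. XAF1, a pro-apoptotic gene, differed by 3.00, IFIT1 by 2.56, MX1 by 2.39 and IFIT3 by 1.89, the last 3 being antiviral effectors. IFI44 (1.67), OAS2 (1.63), OAS1 (1.39), SAMD9 (1.36), PARP14 (1.33) and IFI35 (0.83) were higher as well. GBP1, a guanylate-binding GTPase, was lower at 24 h (-2.12), and BST2 was lower too (-0.47). Against control 1 both had risen at 6 h, GBP1 by 3.49 and BST2 by 0.61, and IRF1 by 0.73. These are the 3 of 31 called at that time, beside 12.4% of all. After 24 h of DAR 5 of 31 were higher than in control 1, beside 0.717% of all, namely IRF9, IFI35, IFIT3, OAS2 and XAF1, and the list's median was 0.94. By line this median was 0.79 in U266, 0.25 in MM.1s, 0.41 in KMS11 and 2.15 in 8226/S. Without KMS11 and without 8226/S none of the 31 was called against control 1, with medians of 1.12 and 0.54, and quantile normalization or no variance trend left 2 and median centring 3. Under ATO 1 of 31 was called at each of 6, 24 and 48 h, beside 4.11%, 3.35% and 8.44% of all probe sets. These were PSMB9 at 6 h (-0.70) and IFI35 at 24 h (0.66) and 48 h (0.88). List medians were -0.09, 0.06 and 0.27 at 6, 24 and 48 h. DTX3L, higher at 48 h than at 6 h of ATO (0.87), was the 1 of 31 called there, beside 2.94% of all.

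The pattern of each brightest probe set over 28 arrays, taken relative to its line and set, was compared with other genes by Pearson correlation. These were the 15437 tested genes less the 8 described here. PML was most like OXR1 (0.84), PLA2G4A (0.77), ZNF512B (0.74), KDM4B (0.73) and SHFL (0.71). SP110 was most like PIAS3 (0.82), PCMTD1, ID2, TMEM106B and GALNT1 (each 0.81). Among the 8 genes the highest value was that of SP100 with SP110 (0.66), and the lowest that of PIAS1 with SENP1 (-0.46). PML had 0.04 with SP100 and 0.18 with SP110. These values describe arrays that share lines, controls and scaling.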

How the data were processed

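Total RNA of 4 myeloma lines was measured on 28 arrays, and line, treatment, time and dose come from the labels. The intensity values were deposited by the authors, made with GCOS per the submitters' processing notes, with no version given in the sources used here. The 2% trimmed mean of every deposited array lies near 500, as after scaling to a shared target, and detection calls were not used.

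Values were taken as log2(value + 29). A probe set was tested (36703 of 54675) where at least 4 of the 28 arrays had it over their own 50th percentile. limma 3.58.1 in R 4.3.3 fitted a baseline for each line and control number and 5 treatment effects, with 15 residual degrees of freedom and a trended prior variance. Benjamini-Hochberg adjustment ran over all probe sets tested. Untreated lines and line by compound were tested with moderated F tests. The number of arrays limits the precision. Nothing in the labels says that arrays came from separate cultures, so p-values measure the spread between lines and arrays.

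The cell line pairs the arrays across treatments, and deviations from group means correlated at 0.686 on average within a line (lowest 0.551). The highest correlation between any 2 arrays was 0.966, and none was a copy.

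Genes are named by single-symbol probe sets (41097 probe sets), with symbols updated through Entrez identifiers for 41043. All probe sets of the 8 genes are named. Lists of partners, SUMO genes, proteases, interferon-stimulated genes and markers were read from each gene's brightest probe set, naming those called in treatment and time comparisons, and list members without such a probe set were not analysed here. The 8 genes and the lists were chosen with earlier results of these data known. The method was tested on simulated data. Alternatives were other offsets, scalings, filters and levels, no variance trend, no replicate block, and each line left out.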

Additional observations from a re-analysis of the deposited data

Results flagged for a closer look

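In 72 sets of 4 line differences, 1 line stood far from the other 3 in 3 cases, a share near the 1 in 20 that chance gives. SP100 202863_at rose most in KMS11 between 48 and 6 h of ATO, with a log2 difference of 1.23 beside 0.44 to 0.56 in the other lines. RNF4 212696_s_at had -0.13 in U266 for the same contrast, beside 0.13 to 0.15 in the other lines. SENP6 202319_at had 1.05 in MM.1s between 24 and 6 h of DAR, beside 0.50 to 0.56 in the other lines.

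Effects at 2 times of the same compound differed, by limma's test of the difference itself, for 15 probe sets and times. Between 24 and 6 h of DAR the mean log2 differences were 1.44 for SP110 223980_s_at, 0.88 for 208012_x_at, 0.78 for 209761_s_at and 0.69 for 209762_x_at. For SP100 they were 1.07 at 210218_s_at, 0.94 at 202864_s_at and 1.02 at 210985_s_at, the last of which was tested only because of its 24 h DAR arrays. For PIAS1 they were 0.63 at 217862_at and 0.42 at 217864_s_at, and for SENP6 0.66 at 202319_at. Between 48 and 6 h of ATO they were 1.18 for PML 211013_x_at, 0.85 for SP110 209761_s_at, 0.78 for SP110 208012_x_at, 0.61 for DAXX 201763_s_at and -0.70 for SENP1 1552812_a_at.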

How the results depend on the processing

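Of the 22 changes called, none turned its direction under any alternative run. An offset of 100 kept 22, an offset of 1 kept 21, quantile normalization 16, no filter 16, no variance trend 14, median centring 13 and no replicate block 6, and the test per gene kept 6 of the 6 it covers. Leaving out 1 line kept 7 (U266), 12 (MM.1s), 7 (KMS11) and 7 (8226/S), in fits with fewer arrays. The differences of DAR 24 h from 6 h for SP110 223980_s_at and PIAS1 217862_at were kept in each of 11 alternatives.

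Member probe sets called after 6 h of ATO were 1 in the fit reported, 2 with an offset of 100, 0 in the test per gene and 3 with no replicate block. In those fits, in that order, 1510, 1667, 990 and 2201 of all probe sets were called. After 48 h of ATO the member counts were 1, against 0 under median centring and 3 with no replicate block (3098, 2514 and 4846 of all). After 6 h of DAR they were 3, against 0 in the test per gene and 6 with no replicate block (4537, 2036 and 5224 of all). After 24 h of DAR they were 2 (350 of all), against 0 under median centring (231), quantile normalization (159) and no variance trend (160). They were 1 in the test per gene (96) and with no replicate block (1312). Between 48 and 6 h of ATO they were 5 (1080 of all), against 2 under median centring (795), no variance trend (476) and the test per gene (603). They were 3 with no filter (858) and 0 with no replicate block (117). Between 24 and 6 h of DAR they were 10 (2714 of all), against 6 under quantile normalization (2123) and with no filter (2360). They were 2 in the test per gene (1184) and with no replicate block (835). Untreated lines differed in 8, against 1 in the test per gene and 2 with no replicate block (16099, 7978 and 4256 of all). The test per gene covers 8 of the member probe sets and 15437 in all, and the cause of the other differences was not tested.

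With 1 line left out, the member counts ran from 0 to 2 (ATO 6 h), 0 to 0 (ATO 24 h), 0 to 1 (ATO 48 h), 2 to 3 (DAR 6 h), 0 to 2 (DAR 24 h), 0 to 3 (ATO 48 h minus 6 h), 2 to 9 (DAR 24 h minus 6 h) and 4 to 9 (untreated lines), with 0 to 0 for both tests of line by compound. Over all probe sets the same fits ran, in that order, from 350 to 1227, 294 to 1509, 1010 to 3534, 2577 to 3963, 13 to 277, 167 to 1398, 1319 to 2049 and 11998 to 13600. For line by compound they ran from 8 to 25 (ATO) and 0 to 12 (DAR).

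Counts over all probe sets, the test per gene aside, ran in the same order from 350 to 2201 around 1510, 294 to 2050 around 1228, 1010 to 4846 around 3098, 2577 to 5224 around 4537, 13 to 1312 around 350, 117 to 1476 around 1080, 835 to 2777 around 2714 and 4256 to 16673 around 16099, and for line by compound from 4 to 35 around 17 (ATO) and 0 to 146 around 10 (DAR). Median centring changed the split of calls to 726 higher and 1788 lower after 48 h of ATO (1471 and 1627 in the fit reported), 1464 and 2730 after 6 h of DAR (2216 and 2321), 131 and 100 after 24 h of DAR (263 and 87) and 183 and 612 between 48 and 6 h of ATO (408 and 672).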
